A study of Mus musculus with 26 samples.

Results

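The genes described here are 9 homeobox genes that pattern the telencephalon (Otx1, Otx2, Emx1, Emx2, Pax6, Lhx2, Dlx1, Dlx2 and Gsx2), out of 19505 genes with a named transcript cluster on the array. They were chosen by name, with earlier results of these data known. Each of the 9 was read by 1 transcript cluster, the array's unit of measurement for a gene. The study asked how a glucocorticoid acts on mouse neural stem and progenitor cells that have or lack the transcription factor SOX2. Cultures were grown from the telencephalon of C57BL/6 mice at postnatal day 0 in Neurocult medium with epidermal growth factor and FGF-1, and after passage 3 each was given 100 nM dexamethasone (Dex, a synthetic glucocorticoid) or its ethanol vehicle for 4 h. The groups were SOX2 KO with Dex (7 arrays), SOX2 KO with vehicle (7 arrays), WT with Dex (6 arrays) and WT with vehicle (6 arrays), all one-colour arrays of total RNA. SOX2 KO cultures carry the numbers 7 to 13 and WT cultures the numbers 1 to 6, with 1 Dex and 1 vehicle array for each number. Cells of each animal were kept apart, so the 13 cultures stand for 13 animals of both sexes. P-values for genotype over the mean of both arrays of a culture measure the spread between these cultures. Those for Dex effects measure the spread of the differences within cultures, pooled over both genotypes. P-values for genotype in Dex or in vehicle alone use a spread pooled over all 26 arrays, which counts both arrays of a culture as separate. The allele, any Cre driver and the sex of each culture are not given in the sources used here. In such bulk RNA, fewer cells of a type and less RNA per cell cannot be told apart.

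Homeobox genes encode transcription factors that bind DNA through a homeodomain, and sets of them divide the early forebrain into territories. Emx1, Emx2, Pax6 and Lhx2 act in the dorsal telencephalon (the pallium), where the cortex forms. Gsx2, Dlx1 and Dlx2 act in the ventral telencephalon (the subpallium), where GABAergic interneurons arise. Otx1 and Otx2 act at the rostral end of the neural tube, and Otx2 is also needed for the choroid plexus, the epithelium that secretes cerebrospinal fluid. SOX2 itself is a factor of neural stem cells, and Dex acts through the glucocorticoid receptor.

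Values are read as log2 expression from their range, since the base of the logarithm is not given in the sources used here, and a difference of 1 log2 unit is then a factor of 2 in signal. Array medians lay between 6.44 and 6.84. Sox2 itself lay between 3.92 and 6.50 on SOX2 KO arrays and between 12.17 and 14.39 on WT arrays, so every array matched its genotype label. Clustering the culture profiles gave 3 array clusters, for which the labels give no reason: cluster 1 held SOX2 KO cultures 7 and 8 with WT cultures 1, 2 and 3, cluster 2 held SOX2 KO cultures 10 and 12 with WT culture 4, and cluster 3 held SOX2 KO cultures 9, 11 and 13 with WT cultures 5 and 6. Culture 4 went against its treatment labels. Fkbp5, a glucocorticoid-induced co-chaperone gene, differed between its Dex and vehicle array by -2.03, against 1.79 to 2.83 in SOX2 KO cultures and 1.27 to 1.87 in the other WT cultures. Comparisons of genotype that average the Dex and vehicle array of a culture do not depend on which of them carries which label.

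The cells carried markers of neural progenitors, with Nes, Vim and Fabp7 at or above the 88th percentile on every array. All 15 measured progenitor markers, of which the member Lhx2 is 1, had a median position above the 50th percentile of their array. The median of these positions was the 86.1 percentile. Of 18 measured patterning genes of the midbrain, hindbrain and spinal cord, 4 had a median position above the 50th percentile and none above the 75th. Of 27 measured dorsal genes that are not members, 8 lay above the 50th and 3 above the 75th, and of 27 such ventral genes 15 and 8. The median of these positions was 38.35 for the midbrain, hindbrain and spinal cord list, 30.3 for the dorsal and 50.4 for the ventral list. By that median the dorsal list did not stand above the first. Among ventral genes that are not members, Olig1 and Olig2, factors of ventral and oligodendrocyte-lineage progenitors, stood at median positions of 98.7 and 98.2, while Dlx5, which follows Dlx1 and Dlx2 in the GABAergic lineage, stood at 3.92. Of the 9 homeobox genes, Lhx2 lay between the 70.7 and 86.8 percentiles on the 26 arrays, Emx2 between 66.4 and 81.9, Pax6 between 69.5 and 79.4, Otx1 between 61.2 and 79.2 and Otx2 between 53.0 and 82.6. Dlx2 ranged more widely, between 35.6 and 75.3. Dlx1 lay between 36.5 and 58.6, Emx1 between 32.4 and 52.4 and Gsx2 between 7.73 and 34.2. A position on the array is not an amount of RNA, since each transcript cluster has its own response, and the table gives no background level, so it cannot be said whether Gsx2, Emx1 or Dlx1 was detected.

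**Figure D1:**
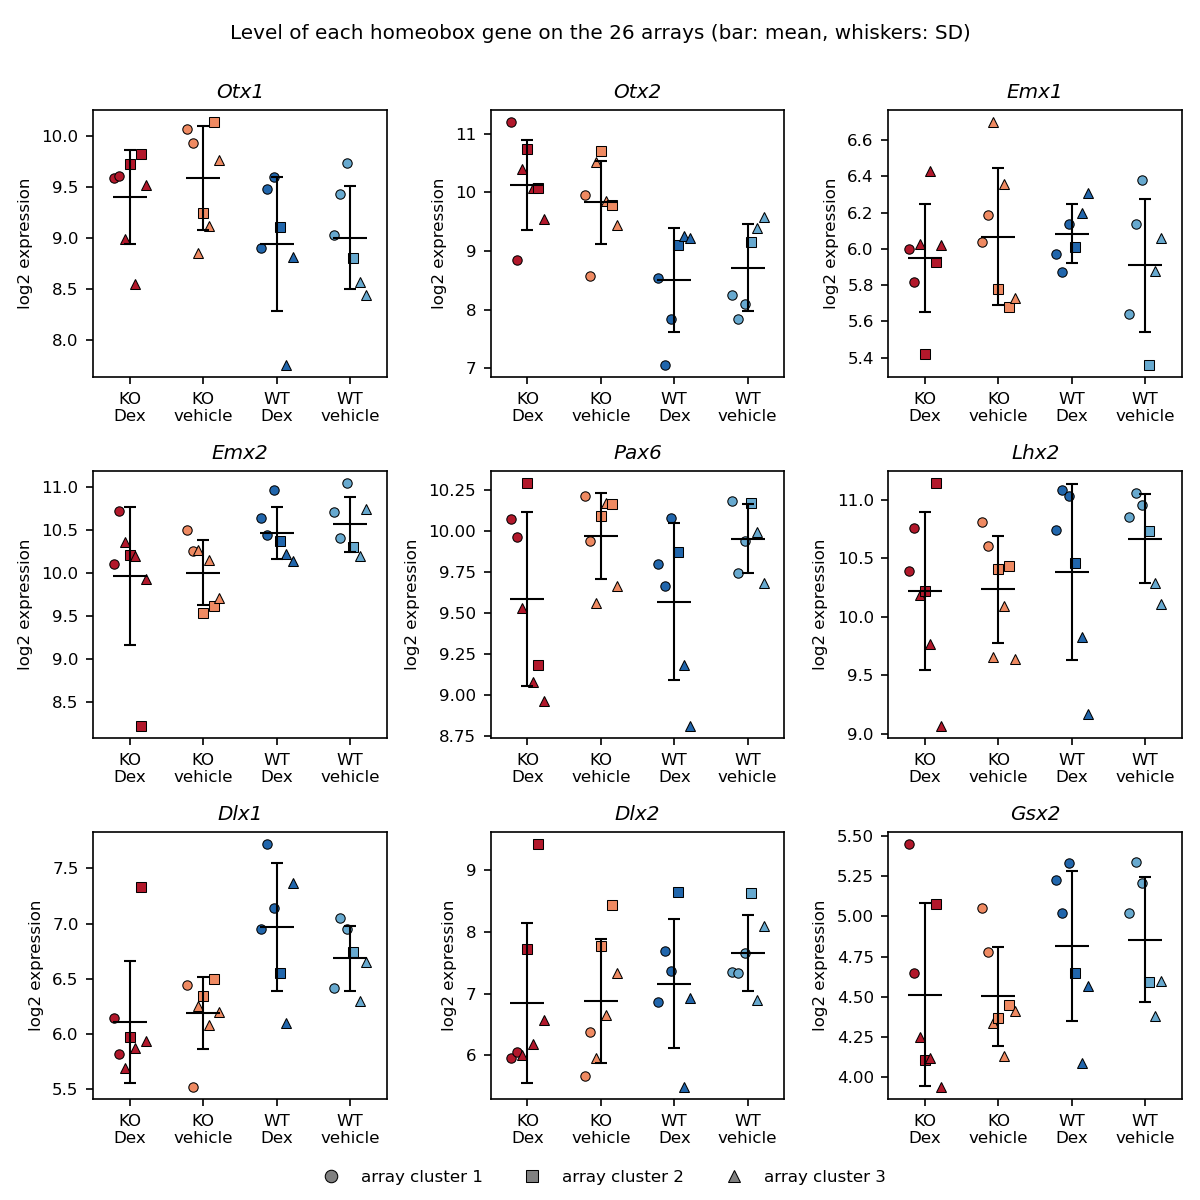
Log2 expression (vertical axes, which differ between panels and do not start at 0) of the 9 homeobox genes in SOX2 KO with Dex, SOX2 KO with vehicle, WT with Dex and WT with vehicle. Each point is 1 array, its shape gives the array cluster, and bars and whiskers are mean and SD (n = 7, 7, 6 and 6); Otx2 averaged 10.13 and 9.83 in the SOX2 KO groups, against 8.51 and 8.72 in the WT groups.

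Genotype was compared first, in Dex and in vehicle arrays separately and over the mean of both arrays of a culture. Under Dex, Otx2 was the 1 member of 9 that passed (limma, Benjamini-Hochberg adjusted p under 0.05), and it was higher in SOX2 KO. Of all 19505 genes, 0.564% passed in that comparison and 0.185% were higher. Dlx1 and Otx2 had an unadjusted p under 0.05, as did 7.56% of all genes. In vehicle no member passed, where 0.559% of all genes did, and 3 members (Otx1, Otx2 and Emx2) had an unadjusted p under 0.05, beside 5.17% of all genes. Over culture means no member passed, where 0.733% of all genes did, and again 3 members (Otx2, Emx2 and Dlx1) had an unadjusted p under 0.05, beside 6.4% of all genes. No member had all SOX2 KO culture means beyond all WT culture means, as 0.554% of all genes did. The sign of the difference was the same in each of the 3 array clusters for 7 of 9 members (not for Emx1 and Pax6) and for 36.9% of all genes. The median difference of SOX2 KO minus WT over the 9 members was -0.30 over culture means, beside -0.04 over all genes, with 4 members positive and 5 negative. Otx1 and Otx2 were on the positive side in Dex, in vehicle and over culture means, and the dorsal genes Emx2 and Lhx2 and the ventral genes Dlx1, Dlx2 and Gsx2 on the negative side. Without culture 13, Lhx2 was at 0.027 in Dex.

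**Figure D2:**
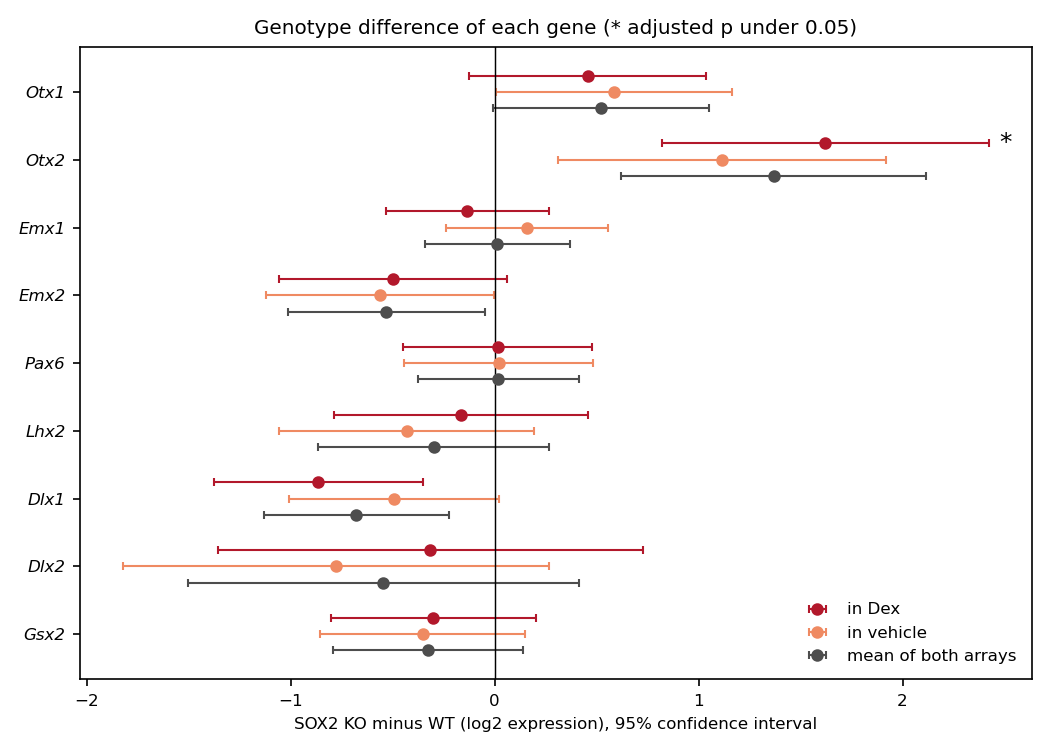
Difference of SOX2 KO minus WT in log2 expression (horizontal axis, zero marked) for each gene in Dex arrays, in vehicle arrays and over culture means, with 95% confidence intervals from limma; the asterisk marks the 1 difference with an adjusted p under 0.05. Otx2 in Dex lies at 1.62 with an interval from 0.82 to 2.42, and Pax6 lies at 0.01 to 0.02 in all 3 comparisons.

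Otx2 encodes a factor that specifies the forebrain and midbrain territory in the early embryo. In Dex arrays its lowest, median and highest level were 8.85, 10.08 and 11.20 in SOX2 KO cultures, against 7.06, 8.83 and 9.25 in WT cultures. In vehicle arrays they were 8.57, 9.85 and 10.71 in SOX2 KO cultures, against 7.85, 8.70 and 9.58 in WT cultures. Under both treatments the groups overlapped, mainly through SOX2 KO culture 8, the lowest of its genotype on both of its arrays. Otx2 averaged 10.13 ± 0.77 in SOX2 KO with Dex (SD, n = 7) and 8.51 ± 0.89 in WT with Dex (SD, n = 6), and rose by 1.62 ± 0.39 log2 units (SE, limma adjusted p = 0.0488). That p lies just under the threshold of 0.05, and the gene ranked 108 by p among all genes. In vehicle it averaged 9.83 ± 0.71 in SOX2 KO and 8.72 ± 0.74 in WT, a difference of 1.11 ± 0.39 that did not pass (limma adjusted p = 0.395). The order of the group means was SOX2 KO with Dex, SOX2 KO with vehicle, WT with vehicle, WT with Dex, and neighbours of the same genotype did not differ by a difference that passed.

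Over culture means, Otx2 averaged 9.98 ± 0.71 in SOX2 KO (SD, n = 7) and 8.61 ± 0.80 in WT (SD, n = 6), a difference of 1.37 ± 0.35 (SE, 95% interval 0.62 to 2.12, limma adjusted p = 0.111). Without culture 8, the lowest SOX2 KO culture, it was 1.58 and passed (limma adjusted p = 0.0299), a choice that rests on 1 culture. Of the 13 settings that leave out 1 culture, this was the 1 that passed, with limma adjusted p up to 0.270 in the others. The call under Dex was sensitive to single cultures. Leaving out each culture in turn gave differences of 1.33 to 1.83 with adjusted p from 0.0101 to 0.172, and the call was lost without culture 1, 2, 3, 7, 9, 10, 11, 12 or 13. It was also lost under quantile normalization (1.71, limma adjusted p = 0.0922) and median centring (1.70, limma adjusted p = 0.0539) of the arrays. Without culture 4 the difference was 1.74 (limma adjusted p = 0.0476).

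Within the array clusters, the SOX2 KO culture means of Otx2 all lay above the WT culture means. In cluster 1 cultures 7 and 8 averaged 10.58 and 8.71, against 8.40, 7.46 and 7.97 in WT cultures 1, 2 and 3. In cluster 2 cultures 10 and 12 averaged 10.73 and 9.94, against 9.13 in WT culture 4. In cluster 3 cultures 9, 11 and 13 averaged 10.46, 9.97 and 9.49, against 9.32 and 9.40 in WT cultures 5 and 6. The mean differences were thus 1.70 in cluster 1, 1.20 in cluster 2 and 0.61 in cluster 3; in cluster 3 culture 13 and WT culture 6 lay close together. Of all genes, 3.76% had culture means that did not overlap and lay on the same side in each of the 3 clusters, and of the members Otx1 and Otx2 did. With the array cluster as a covariate, the Dex difference of Otx2 was 1.42 (limma adjusted p = 0.0154) and that over culture means 1.17 (limma adjusted p = 0.0367). The clusters were drawn from these same values, so this covariate takes out spread by the way it was made. The smaller p-values are therefore no separate support for Otx2. With it 397 genes passed in Dex, against 110 without it.

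The Y-linked gene Eif2s3y was high in SOX2 KO cultures 8 and 10 and WT cultures 1, 2 and 3, and low in the others. Otx2 also did not overlap between genotypes within either of these classes, which held for 1.11% of all genes. With this class as a covariate its Dex difference was 1.43 (limma adjusted p = 0.0318). In WT the high class is the same as cluster 1 and the low class the same as clusters 2 and 3. The split by Eif2s3y thus repeats that of the clusters in WT and is no separate support for Otx2.

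**Figure D3:**
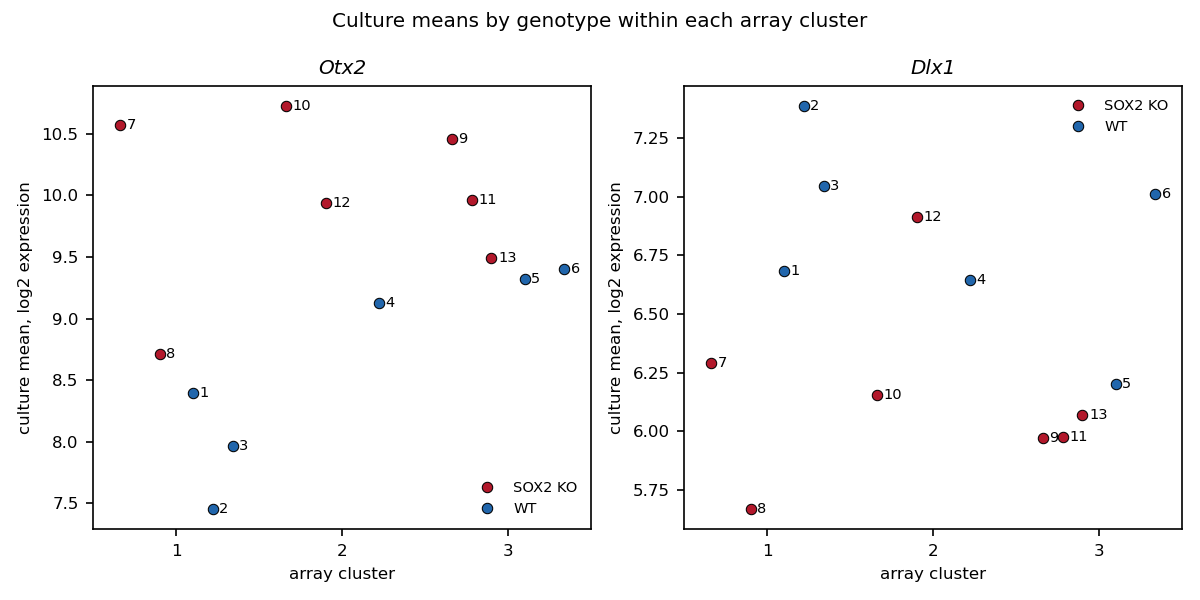
Culture means (vertical axes, log2 expression, mean of the Dex and vehicle array) of Otx2 and Dlx1 by array cluster (horizontal axis), SOX2 KO left of WT in each cluster; each point is 1 culture with its number. For Otx2 every SOX2 KO culture lies above the WT cultures of its cluster, and for Dlx1 culture 12 lies at 6.92, above WT culture 4 at 6.65.

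Choroid plexus markers were read beside Otx2. Of the 7 such markers, all measured, none passed in any of the 3 genotype comparisons and none had an unadjusted p under 0.05. Their mean level ranged from 5.53 to 5.74 in SOX2 KO with Dex, from 5.25 to 5.87 in SOX2 KO with vehicle, from 5.39 to 6.95 in WT with Dex and from 5.37 to 6.57 in WT with vehicle. Ttr, the transport protein that the choroid plexus makes in bulk, was at 12.99 and 11.79 on the Dex and vehicle arrays of WT culture 6, against 4.15 to 7.79 on the other 24 arrays. That culture's Otx2 levels were 9.22 with Dex and 9.58 with vehicle, the latter the highest of the WT vehicle arrays. WT cultures 4 and 5 lay at 9.11 and 9.25 with Dex and at 9.15 and 9.39 with vehicle. The part of choroid plexus cells in the Otx2 values was not tested.

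Otx1, the relative of Otx2 with a role in the growth of the cortex, pointed the same way without passing. In Dex arrays its lowest, median and highest level were 8.55, 9.59 and 9.83 in SOX2 KO cultures, against 7.76, 9.01 and 9.60 in WT cultures. In vehicle arrays they were 8.86, 9.77 and 10.14 in SOX2 KO cultures, against 8.45, 8.92 and 9.74 in WT cultures. The groups overlapped over most of their range. The difference was 0.46 ± 0.28 in Dex (SE, limma adjusted p = 0.810), 0.59 ± 0.28 in vehicle (limma adjusted p = 0.952) and 0.52 ± 0.25 over culture means (limma adjusted p = 0.796). Without culture 5 the Dex difference was 0.22. Within the clusters it was 0.44, 0.78 and 0.74, and in each of them all SOX2 KO culture means lay above those of WT.

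Of the dorsal genes, Emx2, which patterns the caudal and medial cortex, was on the negative side without passing. In Dex arrays its lowest, median and highest level were 8.22, 10.19 and 10.72 in SOX2 KO cultures, against 10.13, 10.41 and 10.96 in WT cultures. In vehicle arrays they were 9.53, 10.15 and 10.50 in SOX2 KO cultures, against 10.19, 10.55 and 11.04 in WT cultures. The lowest value of 8.22 came from the Dex array of culture 12, which also had the lowest upper quartile of all arrays (9.38, against up to 10.43). The difference was -0.50 ± 0.27 in Dex (SE, limma adjusted p = 0.747), -0.56 ± 0.27 in vehicle (limma adjusted p = 0.962) and -0.53 ± 0.23 over culture means (limma adjusted p = 0.674). Without culture 12 the difference was -0.21 in Dex and -0.35 over culture means. Within the clusters it was -0.30, -0.95 and -0.22 over culture means.

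Pax6 is a master gene of eye and cortical progenitors. In Dex arrays it averaged 9.58 ± 0.53 in SOX2 KO (SD, n = 7) and 9.57 ± 0.48 in WT (SD, n = 6). In vehicle it averaged 9.97 ± 0.26 in SOX2 KO and 9.95 ± 0.21 in WT. The difference over culture means was 0.02 ± 0.19, and its 95% interval of -0.38 to 0.41 covers differences of that size either way. Lhx2, a selector gene of the cortex that keeps it distinct from its medial neighbours, had medians of 10.22 in SOX2 KO and 10.60 in WT with Dex, and of 10.41 in SOX2 KO and 10.79 in WT with vehicle. Its difference was -0.17 ± 0.31 in Dex, -0.43 ± 0.31 in vehicle and -0.30 ± 0.27 over culture means. Emx1, a gene of cortical progenitors, differed by 0.01 ± 0.17 over culture means (95% interval -0.34 to 0.37), with levels from 5.42 to 6.43 in SOX2 KO and 5.87 to 6.31 in WT under Dex. The groups of each of these 3 genes overlapped.

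Of the ventral genes, Dlx1, which with its neighbour Dlx2 drives the GABAergic lineage, had the largest difference relative to its error. In Dex arrays its lowest, median and highest level were 5.69, 5.94 and 7.33 in SOX2 KO cultures, against 6.10, 7.05 and 7.72 in WT cultures. In vehicle arrays they were 5.52, 6.25 and 6.50 in SOX2 KO cultures, against 6.30, 6.70 and 7.05 in WT cultures. Under Dex, SOX2 KO culture 12 at 7.33 stood apart from the other 6 cultures of its genotype, which lay at 6.14 or below. The difference was -0.86 ± 0.25 in Dex (SE, 95% interval -1.38 to -0.35, limma adjusted p = 0.148), -0.50 ± 0.25 in vehicle (limma adjusted p = 1.00) and -0.68 ± 0.22 over culture means (limma adjusted p = 0.274). Without culture 12 the Dex difference was -1.07 and passed (limma adjusted p = 0.0132), a choice that rests on 1 culture. Over culture means the difference within the clusters was -1.06, -0.11 and -0.60, and in Dex arrays alone it was -1.29, 0.10 and -0.90.

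Dlx2 varied most among cultures. In Dex arrays its lowest, median and highest level were 5.95, 6.18 and 9.42 in SOX2 KO cultures, against 5.49, 7.15 and 8.64 in WT cultures. In vehicle arrays they were 5.66, 6.65 and 8.43 in SOX2 KO cultures, against 6.89, 7.50 and 8.63 in WT cultures. The highest culture means were those of cluster 2, at 8.93 and 7.75 in SOX2 KO cultures 12 and 10 and 8.64 in WT culture 4, while the vehicle array of WT culture 6 in cluster 3 reached 8.10. Its difference was -0.31 ± 0.51 in Dex, -0.78 ± 0.51 in vehicle and -0.55 ± 0.45 over culture means, and none of these passed. In Dex it was -0.74 without culture 12 and -0.019 without culture 4, and over culture means it was -0.89 without culture 12 and -0.30 without culture 4. Gsx2, which acts before the Dlx genes in ventral progenitors, differed by -0.30 ± 0.25 in Dex, -0.35 ± 0.25 in vehicle and -0.33 ± 0.22 over culture means, at levels of 3.94 to 5.45 in SOX2 KO and 4.09 to 5.34 in WT over both treatments.

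Other genes of the same territories, from lists of dorsal and ventral patterning genes, are described by their counts. Of 27 measured dorsal genes, 1 passed and it was higher in SOX2 KO: Lef1, a transcription factor of the Wnt pathway that is needed for the hippocampus. Under Dex it lay at 4.86 to 8.40 in SOX2 KO, against 3.86 to 4.62 in WT, with no overlap, and rose by 1.79 ± 0.37 (SE, limma adjusted p = 0.0111). In vehicle it lay at 4.77 to 6.17 in SOX2 KO, against 3.54 to 4.61 in WT, also with no overlap, and rose by 1.64 ± 0.37 (limma adjusted p = 0.0240). The call in vehicle was lost without culture 1, 2, 5, 7, 8 or 13 (limma adjusted p up to 0.0960). Of 27 measured ventral genes, none passed in any genotype comparison, with 5 at an unadjusted p under 0.05 in Dex and 2 in vehicle. The dorsal list had 2 such genes in Dex and 2 in vehicle, and of all genes 7.56% in Dex and 5.17% in vehicle had such a p. The median difference over culture means was -0.07 for the dorsal list and -0.09 for the ventral list, beside -0.04 over all genes. Gli2, a mediator of hedgehog signalling in that list, differed by -1.11 ± 0.31 over culture means (limma adjusted p = 0.152).

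Some markers of other cell types differed with genotype. Of 7 astrocyte markers, Aldoc and Slc1a2 passed as lower in SOX2 KO in all 3 comparisons and none passed as higher. Under Dex 6 of the 7 were on the negative side and 1 on the positive side (Gfap, at 0.30). Aldoc, a glycolytic enzyme of astrocytes, lay at 13.24 to 14.21 in SOX2 KO and 14.81 to 15.58 in WT under Dex, with no overlap, and fell by 1.40 log2 units (limma adjusted p = 0.000803). Slc1a2, a glutamate transporter, lay at 9.26 to 11.04 in SOX2 KO and 10.67 to 12.68 in WT under Dex, and fell by 2.08 log2 units (limma adjusted p = 0.00153). The mean of the astrocyte list ranged from 9.78 to 11.72 in SOX2 KO and from 10.06 to 12.17 in WT under Dex, and from 9.98 to 11.74 in SOX2 KO and from 10.10 to 11.93 in WT under vehicle. Of 11 neuronal markers, Syt1 passed as lower in SOX2 KO in all 3 comparisons, falling by 1.42 log2 units under Dex (limma adjusted p = 0.0399), and none passed as higher. Under Dex 8 of the 11 were on the negative side and 3 on the positive side (Tubb3, Snap25 and Nefm, at 0.64, 0.57 and 0.52). The Syt1 call under Dex was lost without any 1 of the cultures 1, 2, 3, 4, 8, 9, 10, 11, 12 and 13, and over culture means without 1, 9, 10 or 11 (limma adjusted p up to 0.129). The mean of the neuronal list ranged from 8.17 to 8.62 in SOX2 KO and from 8.32 to 9.32 in WT under Dex, and from 7.96 to 8.81 in SOX2 KO and from 8.34 to 9.16 in WT under vehicle. No marker passed among those of progenitors, oligodendrocyte lineage, Cajal-Retzius cells, microglia, vessels and meninges, neural crest or erythroid cells. Of these lists, 7 of 9 oligodendrocyte-lineage markers and 1 of 5 erythroid markers (Alas2) were measured, so little can be read from the erythroid list. The part of cell makeup in the Otx2 and Dlx1 values was not tested.

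The response to Dex was compared within cultures, as the Dex minus the vehicle array of each. No member passed in SOX2 KO, where 0.0718% of all genes did, and none passed in WT, where 0% did. With limma, 1 member in SOX2 KO (Pax6) and 1 in WT (Dlx2) had an unadjusted p under 0.05, beside 10.2% and 3.87% of all genes. Without culture 4, 49 genes passed in SOX2 KO and 33 in WT, with no member among them. Culture 4 is a WT culture and acts on the SOX2 KO count only through the spread, which is pooled over both genotypes. No gene of the dorsal and ventral lists passed with Dex in either genotype. No member was lower with Dex in all 7 SOX2 KO cultures, as 1.49% of all genes were, or higher in all 7, as 1.01% were. The difference of the Dex effects between the genotypes passed for no member and for 0% of all genes. Of the members, Otx2 alone had an unadjusted p under 0.05 in that test, beside 3.53% of all genes.

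**Figure D4:**
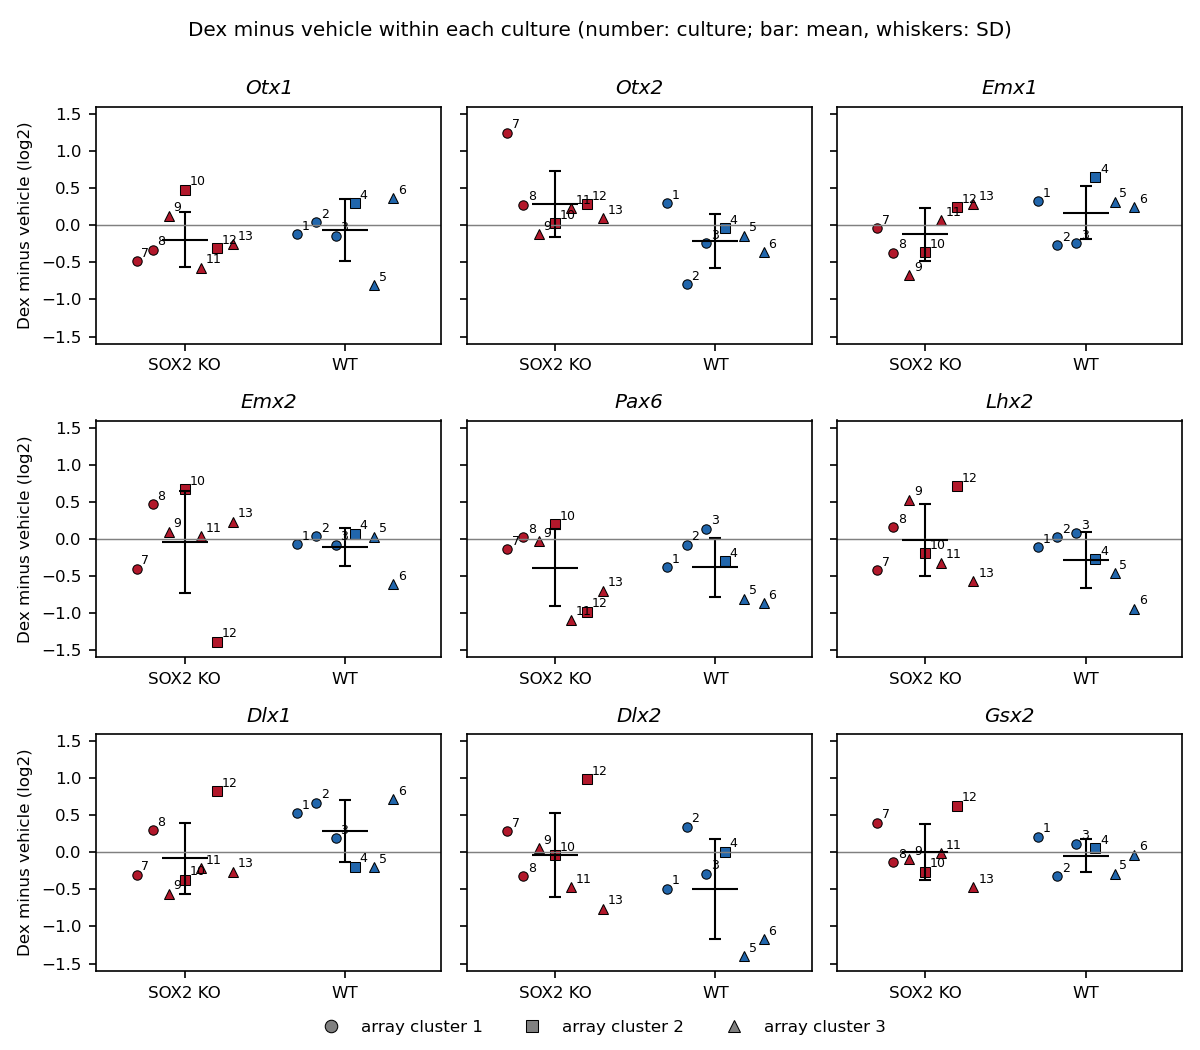
Dex minus vehicle in log2 expression (vertical axis, common to all panels, zero marked) for each gene in SOX2 KO (left) and WT (right) cultures. Each point is 1 culture with its number, its shape gives the array cluster, and bars and whiskers are mean and SD (n = 7 and 6); Pax6 lies below 0 in 10 of 13 cultures, and Otx2 lies above 0 in 6 of 7 SOX2 KO cultures and below 0 in 5 of 6 WT cultures.

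With all arrays taken by their labels, Pax6 had the most even sign over all cultures. Its Dex array was the lower one in 5 of 7 SOX2 KO and 5 of 6 WT cultures. WT culture 4, which went against its treatment labels, is counted among these, at -0.30. The Pax6 difference ranged from -1.09 to 0.20 in SOX2 KO and from -0.87 to 0.14 in WT. The mean was -0.39 ± 0.17 in SOX2 KO (SE, limma adjusted p = 0.468) and -0.38 ± 0.18 in WT (SE, limma adjusted p = 0.999), so neither passed. The mean difference was lowest in cluster 3, at -0.61 in SOX2 KO and -0.84 in WT. It was -0.39 in SOX2 KO and -0.30 in WT in cluster 2, where the WT value is that of culture 4 alone. In cluster 1 it was -0.06 in SOX2 KO and -0.11 in WT. Single cultures did not all follow that order, with culture 12 of cluster 2 at -0.98 and culture 9 of cluster 3 at -0.03.

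For Otx2 the Dex array was the higher one in 6 of 7 SOX2 KO cultures and the lower one in 5 of 6 WT cultures. Culture 4, which went against its treatment labels, is counted among these WT cultures, at -0.04. The difference ranged from -0.12 to 1.25 in SOX2 KO, with a mean of 0.29 ± 0.16 (SE, limma adjusted p = 0.540), and from -0.79 to 0.30 in WT, with a mean of -0.21 ± 0.17 (SE, limma adjusted p = 0.999). The value of 1.25 came from culture 7, and the other 6 SOX2 KO cultures lay at 0.29 or below. The Dex effects differed by 0.51 ± 0.23 (SE), which did not pass (limma adjusted p = 0.999), and by 0.54 without culture 4.

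Dlx2 had a mean Dex difference of -0.04 in SOX2 KO (0.02 after quantile normalization), with a range of -0.76 to 0.99, and of -0.50 ± 0.23 in WT (SE), with a range of -1.40 to 0.35. In WT the lowest differences were those of cultures 5 and 6, at -1.40 and -1.17, and without culture 4 the mean was -0.60 (limma adjusted p = 0.974). Dlx1 differed by -0.08 in SOX2 KO and by 0.29 ± 0.18 in WT. Otx1, Emx1, Emx2, Lhx2 and Gsx2 had mean differences between -0.28 (Lhx2 in WT) and 0.17 (Emx1 in WT), with both signs among the cultures of each genotype. Without culture 4 the Emx1 mean in WT was 0.078. In SOX2 KO the sign of the mean of Emx2, Lhx2 and Gsx2 turned under quantile normalization.

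How far the genes vary between cultures of 1 genotype differed more among the members than how far they vary with Dex. The SD between cultures of a genotype was 0.985 for Dlx2 and 0.750 for Otx2, at the 99.3 and 96.5 percentiles of all genes, beside a median of 0.380 over all genes. It was 0.260 for Emx1 and 0.319 for Pax6, at the 15.6 and 32.1 percentiles. The SD of the Dex minus vehicle difference ran from 0.318 for Gsx2 to 0.621 for Dlx2, beside a median of 0.447 over all genes.

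With the mean of each array cluster removed, Dlx1 and Dlx2 had a correlation of 0.843 over the 13 culture means (0.628 before removal), and Dlx1 and Gsx2 one of 0.811. Otx2 and Dlx2 had a correlation of -0.784 (-0.200 before removal). These values describe 13 cultures that share array clusters and 2 genotypes, and carry no test. By the same measure the genes most like Otx2 over the array were Mir675, Pde6b and Igfbp7 (0.933, 0.914 and 0.910, and before removal 0.648, 0.725 and 0.475). Those most like Dlx1 were Aatk, Sh3pxd2a and Vegfb (0.875, 0.868 and 0.855, and before removal 0.756, 0.809 and 0.702). Those most like Pax6 were Slc9a4, Mttp and Lztr1 (0.939, 0.914 and 0.900, and before removal 0.960, 0.154 and 0.953). Those most like Emx2 were Limd1, Cox7a2 and Dynlt1b (0.974, 0.948 and 0.948, and before removal 0.965, 0.353 and 0.899). Mttp and Cox7a2 thus had a low correlation before the cluster means were removed. Members not listed here had such genes too. Among them Chac2 for Dlx2 (0.892) and A4galt for Gsx2 (0.911) were at -0.348 and -0.169 before removal. All these genes were picked as the highest over the whole array, so high values come with the choice.

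The starts of Otx2, Dlx1 and Dlx2 are shown because Otx2 is the gene called under Dex and because the Dlx genes, neighbours on the chromosome, varied together. Each line gives the 250 bases before an annotated start on the gene's own strand, from RefSeq on GRCm38.p6: Otx2 (first of 4 starts) at chr14:48667645-48667894 on the minus strand, Dlx1 at chr2:71529195-71529444 on the plus strand and Dlx2 at chr2:71546755-71547004 on the minus strand. Capitals mark ACAAT, a core of the sites that SOX factors bind, searched on both strands.
Otx2: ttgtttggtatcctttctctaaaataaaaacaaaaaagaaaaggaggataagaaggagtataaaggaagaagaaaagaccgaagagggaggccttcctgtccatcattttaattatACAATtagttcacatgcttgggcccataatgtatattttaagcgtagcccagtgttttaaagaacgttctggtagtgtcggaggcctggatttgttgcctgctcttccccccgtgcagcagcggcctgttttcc
Dlx1: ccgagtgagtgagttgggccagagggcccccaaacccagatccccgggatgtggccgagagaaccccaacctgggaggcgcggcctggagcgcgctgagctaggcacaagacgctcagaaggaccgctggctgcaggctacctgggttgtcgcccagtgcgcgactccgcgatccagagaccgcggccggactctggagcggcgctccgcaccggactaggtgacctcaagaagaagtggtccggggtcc
Dlx2: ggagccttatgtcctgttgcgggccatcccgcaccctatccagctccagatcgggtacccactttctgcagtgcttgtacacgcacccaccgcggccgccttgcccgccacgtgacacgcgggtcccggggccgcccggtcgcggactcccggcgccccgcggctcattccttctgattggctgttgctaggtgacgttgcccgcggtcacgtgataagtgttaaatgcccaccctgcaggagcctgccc
The Otx2 window holds ACAAT once, beginning 134 bases before the start, and the Dlx1 and Dlx2 windows do not hold it. Of 32851 RefSeq promoters of this length, 27.7% hold it on either strand. That share is per start, and Otx2 has 4 starts. Of the 9 members, 8 have a promoter in the table used here, and among these the letters occur at starts 1 and 4 of the 4 of Otx2 and at start 1 of 2 of Pax6. A second SOX form, ACAAAG, occurs at start 2 of Pax6, and in 16.5% of all promoters. Letters of homeodomain and glucocorticoid receptor sites were also searched and are not described here. The Otx2 window has a GC content of 42%, and the Dlx1 and Dlx2 windows 68% and 66.4%. A match is a stretch of letters and not a bound site, and binding was not measured in these arrays.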

How the data were processed

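Expression was measured on 26 one-colour arrays of biotin-labelled cRNA from 13 cultures. The deposited table was read as log2 expression, since its values run from 2.22 to 19.81, and the authors' normalization and the base of the logarithm are not given in the sources used here. Of 22206 transcript clusters, 19572 have 1 gene symbol in the platform annotation, none has several and 2634 have none. Where a gene had several (55 genes), the one of highest mean was kept, which left 19505 genes.

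Genotype was tested with limma 3.58.1 in R 4.3.3 on 4 group means, and on the mean of both arrays of each culture. The fit on 4 group means had no block and counted both arrays of a culture as separate in its spread. Dex effects and their difference were tested with the culture as a block. Dex and vehicle arrays of a number correlated at 0.312 to 0.731 after group means were removed, and the labels keep animals apart, so the numbers were read as pairs. P-values were adjusted by Benjamini-Hochberg over all genes at a threshold of 0.05. The fits were tested on simulated data. Array clusters came from average-linkage clustering of culture profiles. The number of arrays limits the precision.

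The homeobox genes, the marker lists and the rules were chosen with earlier results of these data known. All 9 genes are named in every comparison. Of each list the members past the threshold (up to 8) are named, with up to 3 of highest or lowest level where a list checks the cells, and for some homeobox genes the 3 genes of highest correlation. Gli2, Nes, Vim, Fabp7 and Ttr were named after their values were seen. Some list genes were not analysed here. The alternatives were other scalings, a filter on low means, array weights, a prior that was robust and trended, the block, covariates and leaving out cultures.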

Additional observations from a re-analysis of the deposited data

Results flagged for a closer look

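Of 36 groups of arrays (9 genes in 4 groups), 3 held an array far from the rest of its group, where chance gives about 1 in 20. Emx2 in SOX2 KO with Dex was at 8.22 in culture 12, and the nearest of the other cultures was at 9.93. Dlx1 in SOX2 KO with Dex was at 7.33 in the same culture 12, and the nearest was at 6.14. Dlx1 in SOX2 KO with vehicle was at 5.52 in culture 8, and the nearest was at 6.08. Culture 12 also had the highest Dlx2 level of all arrays, 9.42, on its Dex array.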

How the results depend on the processing

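Over 54 results of the 9 genes, 1032 of 1119 alternative values kept the direction and the side of the threshold. Otx2 under Dex passed in 10 of 22 alternatives, with adjusted p from 0.00225 to 0.172. It did not pass with quantile normalization (1.71), median centring (1.70) or without cultures 4 and 12 (1.75, chosen after the data were seen), and leaving out 1 culture gave 1.33 to 1.83. Dlx1 under Dex passed in 3 of 22 (array weights, -1.19, and without culture 12 or both 4 and 12). Over culture means Otx2 passed with array weights (1.66), with the array cluster as a covariate (1.17) and without culture 8. With array weights Lhx2 (-0.74) and Gsx2 (-0.66) also passed over culture means, as did Dlx1 (-0.85).

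Counts of genes in vehicle, in Dex and over culture means were 109, 110 and 143. They were 169, 171 and 219 with quantile normalization, 378, 561 and 1158 with array weights, and 376, 397 and 550 with the array cluster as a covariate. Leaving out 1 culture gave 75 to 143, 69 to 160 and 85 to 182. Counts for Dex were 14 in SOX2 KO and 0 in WT. They were 66 and 58 without cultures 4 and 12, and leaving out 1 culture gave 3 (without 13) to 49 (without 4) in SOX2 KO and 0 to 33 (without 4) in WT. Array weights gave 1 in WT. The difference of Dex effects gave 0 in each alternative.

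The culture as a random replicate block gave 136 genes in vehicle and 141 in Dex, with Otx2 at 1.62 (limma adjusted p = 0.0135). Without the pairing, Dex in SOX2 KO gave 10 genes. No call of a homeobox gene turned on the block.

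Signs turned for differences near 0. With array weights the genotype difference was -0.045 in vehicle, -0.14 in Dex and -0.19 over culture means for Pax6, and 0.0072 in Dex for Emx1. Over culture means Emx1 was at -0.012 with the Y-linked covariate and -0.016 without cultures 4 and 12. For Dex in SOX2 KO, quantile normalization gave 0.037 for Emx2, 0.059 for Lhx2, 0.0245 for Dlx2 and -0.026 for Gsx2, and median centring 0.011 for Lhx2. Array weights gave 0.17 for Emx2 and -0.073 for Gsx2, and leaving out cultures 4 and 12 gave 0.185 for Emx2 and -0.093 for Gsx2. The difference of Dex effects for Pax6 was 0.063 with quantile normalization, 0.032 with median centring, 0.035 with array weights and 0.11 without cultures 4 and 12, and for Gsx2 it was -0.038 with array weights and -0.031 without cultures 4 and 12. The cause was not tested. Leaving out 1 culture gave, for Dex in SOX2 KO, -0.21 to 0.085 (Dlx2), -0.16 to 0.185 (Emx2), -0.093 to 0.090 (Gsx2) and -0.14 to 0.078 (Lhx2). For Dex in WT it gave -0.092 to 0.014 (Gsx2) and -0.15 to 0.090 (Otx1). For the difference of Dex effects it gave -0.055 to 0.29 (Emx2), -0.052 to 0.13 (Gsx2) and -0.10 to 0.11 (Pax6). For genotype it gave -0.052 to 0.081 (Emx1, culture means), -0.41 to 0.027 (Lhx2, Dex), and for Pax6 -0.034 to 0.088 in vehicle, -0.14 to 0.12 in Dex and -0.085 to 0.095 over culture means. With the low-level filter Gsx2 had no value.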
